A study of Mus musculus with 10 samples.

Results

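The genes described here are the sterol sensing machinery of the SREBP pathway in the mouse spinal cord, namely *Srebf1*, *Srebf2*, *Scap*, *Insig1*, *Insig2*, *Mylip* and *Stard4*. They were chosen by name from the 25232 genes of the deposited table, without the biosynthetic enzymes, and all 7 had a row. The libraries came from 5 WT and 5 SOD1 G93A female C57BL/6 mice at 90 days of age, an early symptomatic stage at which the study asked whether lipid metabolism was altered. The SOD1 G93A line, which the methods place on a C57BL/6J background, is a model of familial amyotrophic lateral sclerosis in which mutant human *SOD1* is expressed from a high-copy transgene, and the WT mice were littermates. The tissue was the spinal cord, with the lumbar region named in the methods.

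The single level that the table gives for a gene is the base mean, the mean over the 10 libraries of the counts after division by each library's size factor. It pools WT and SOD1 G93A mice. The values therefore describe how abundant these transcripts were in the spinal cords of the whole cohort, with no spread between mice, and a difference between the genotypes was not analysed here. In bulk tissue, fewer cells of a type and less RNA per cell cannot be told apart.

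SREBP proteins are membrane-bound transcription factors that switch on the genes of sterol and fatty acid synthesis. SCAP binds them in the endoplasmic reticulum and, when sterols are scarce, carries them in COPII vesicles to the Golgi, where a pair of proteases frees the active fragment. When sterols are plentiful, SCAP changes shape and INSIG proteins hold the complex back. In the central nervous system, cholesterol is made locally, since lipoprotein cholesterol from the blood hardly enters it.

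The members fell on different chromosomes. In the GENCODE M21 annotation of GRCm38, the build that mm10 denotes, *Srebf1* lies on chromosome 11 from 60199089 to 60222581 on the minus strand and *Srebf2* on chromosome 15 from 82147181 to 82205379 on the plus strand. *Scap* lies on chromosome 9 from 110333288 to 110384950 on the plus strand. *Insig1* is the most compact member, on chromosome 5 from 28071363 to 28078662 on the plus strand, and *Insig2* lies on chromosome 1 from 121304353 to 121332589 on the minus strand. *Mylip* is found on chromosome 13 from 45389742 to 45412022 on the plus strand and *Stard4* on chromosome 18 from 33199355 to 33213862 on the minus strand.

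The genes of a pair are related to each other but distinct in sequence. The proteins translated from the longest coding transcripts of *Insig1* (259 residues) and *Insig2* (225 residues) were identical at 74.7% of 221 aligned positions. Those of *Srebf1* (1134 residues) and *Srebf2* (1130 residues) were identical at 46.3% of 1094 aligned positions. For scale, *Insig2* and *Stard4*, which belong to unrelated families, were identical at 20.1% of 194 aligned positions. Only uniquely mapped reads entered the counts, so shared stretches would lower a gene's value. Of the 100-base windows of the annotated transcripts, which have the length of 1 read, 0 of 2994 for *Insig1* and 0 of 3712 for *Insig2* occurred in a transcript of another gene. The same was found for 0 of 7473 windows of *Srebf2*, 0 of 3132 of *Mylip* and 0 of 5680 of *Stard4*. *Scap* shared 499 of 7575 windows (6.59%) with a transcript on the opposite strand that has no row in the table. *Srebf1* shared 10 of 5907 windows with its neighbour *Rai1*, also on the opposite strand. Counted in merged exon bases, these overlaps took 985 of 7443 in *Scap* (13.2%) and 109 of 5634 in *Srebf1* (1.93%). Reads from such an overlap map to 1 place and can be told apart only by strand. The libraries were stranded, but the strand setting of the counting is not given in the sources used here.

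Starting with the transcription factors, *Srebf2*, whose product mainly drives cholesterol synthesis and uptake, had a base mean of 4868, the highest of the 7 genes. *Srebf1*, whose product mainly drives fatty acid synthesis, had a base mean of 2480. Among the 20973 genes with a base mean above 0, *Srebf2* stood at percentile 96.2 and *Srebf1* at percentile 90.1. Longer transcripts collect more reads, so levels of different genes were compared per kilobase of exon, with all annotated exons of a gene merged. On that scale *Srebf2* had 678 and *Srebf1* 440 base mean units per kilobase, a ratio of 1.54. Both factors were thus among the more abundant transcripts of the tissue. RefSeq gives 3 starts for *Srebf1* and 1 for *Srebf2*, and the forms of SREBP-1 that begin at different starts were counted as a single gene.

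**Figure D1:**
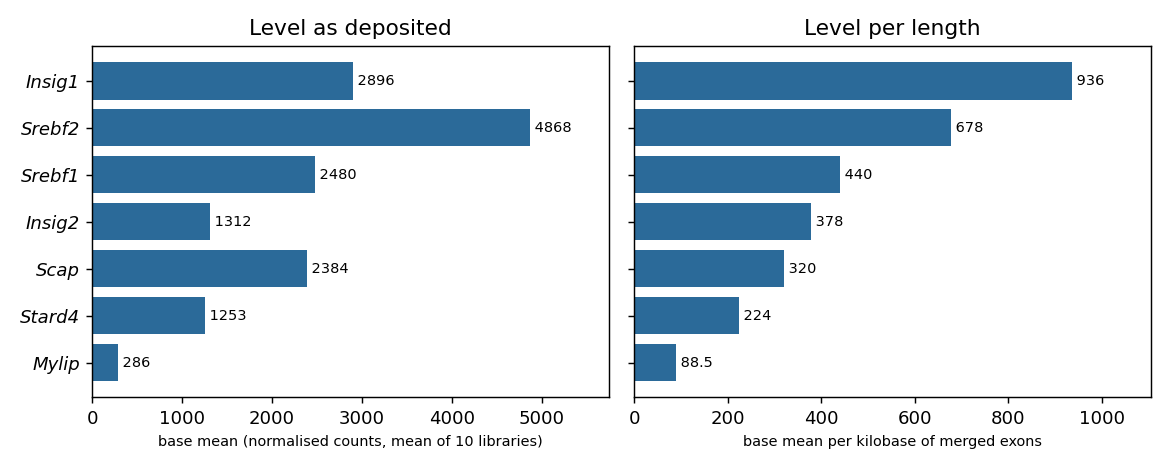
Levels of the 7 genes as bars, on the left as the authors' base mean over all 10 libraries and on the right per kilobase of merged exons. *Srebf2* has the longest bar on the left (4868) and *Insig1* on the right (936), and *Mylip* has the shortest bar in both (286 and 88.5). The bars have no error, because the table pools the libraries.

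*Scap*, the gene of the escort protein, had a base mean of 2384, at percentile 89.7 of the genes above 0. Its merged exons are the longest of the 7 genes (7443 bases), and its level per kilobase was 320, the fifth of the 7. The base means of *Scap* and *Srebf1* were close, but per kilobase *Srebf1* was higher. *Scap* is an integral sensor of the pathway and has no paralog among the members.

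The retention proteins differed in level. *Insig1* had a base mean of 2896 (percentile 91.8) and *Insig2* one of 1312 (percentile 80.0). *Insig1* is itself a textbook target of SREBP, so that its transcript follows SREBP activity, while *Insig2* is less dependent on it. Per kilobase *Insig1* reached 936, the highest of the 7 genes and at percentile 94.9 of all genes with a length, and *Insig2* reached 378. The ratio of *Insig1* to *Insig2* was 2.48 per kilobase and 2.21 for the base mean itself. With the mean transcript length in place of the merged exons it was 1.00, since *Insig2* has 14 annotated transcripts with a mean of 783 bases and *Insig1* has 2 with a mean of 1727 bases. The longest transcript has 2697 bases in both genes, and with it the ratio was 2.21. Together the pair had 4.10 times the level of *Scap* per kilobase, and between 1.45 and 9.11 times under the other choices of length.

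**Figure D2:**
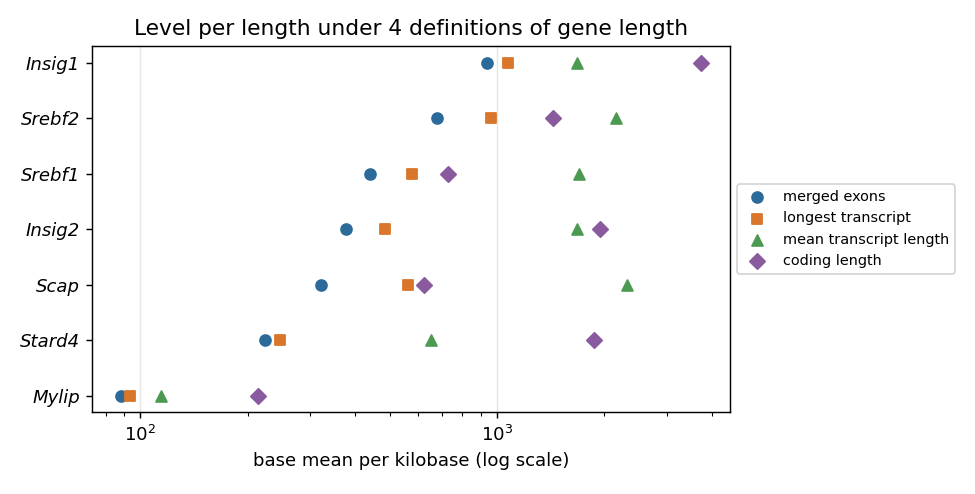
Base mean per kilobase of each gene (log scale) when the gene's length is that of its merged exons, its longest transcript, the mean of its transcripts or its coding sequence. *Mylip* is the lowest of the 7 genes with every length, while the first place goes to *Insig1* except with the mean transcript length, where *Scap* is first.

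Of the genes that act on sterol uptake and transport, *Stard4*, which encodes a carrier that moves cholesterol between membranes and is known as a target of SREBP-2, had a base mean of 1253, at percentile 79.0. Its level per kilobase was 224. *Mylip*, which encodes the ubiquitin ligase IDOL that marks lipoprotein receptors for degradation and is known as a target of the sterol-activated LXR receptors, had a base mean of 286, at percentile 52.2. Its level per kilobase was 88.5, the lowest of the 7 genes and close to the middle of all genes, at percentile 56.0. *Stard4* was 2.53 times as high as *Mylip* per kilobase, and 8.69 times as high when the coding length was used, because the coding sequence is a small part of the *Stard4* transcript (672 of at most 5097 bases).

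The order per kilobase was therefore *Insig1*, *Srebf2*, *Srebf1*, *Insig2*, *Scap*, *Stard4* and *Mylip*, over a 10.6-fold range. Neighbours such as *Insig2* (378) and *Scap* (320) exchanged places when the longest transcript set the length, with 487 and 564 per kilobase. Whether neighbours differed beyond the spread between mice was not tested, since the table gives no value of a single library. The base means of the 7 genes sum to 15479, which is 0.0699% of the total over all genes.

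**Figure D3:**
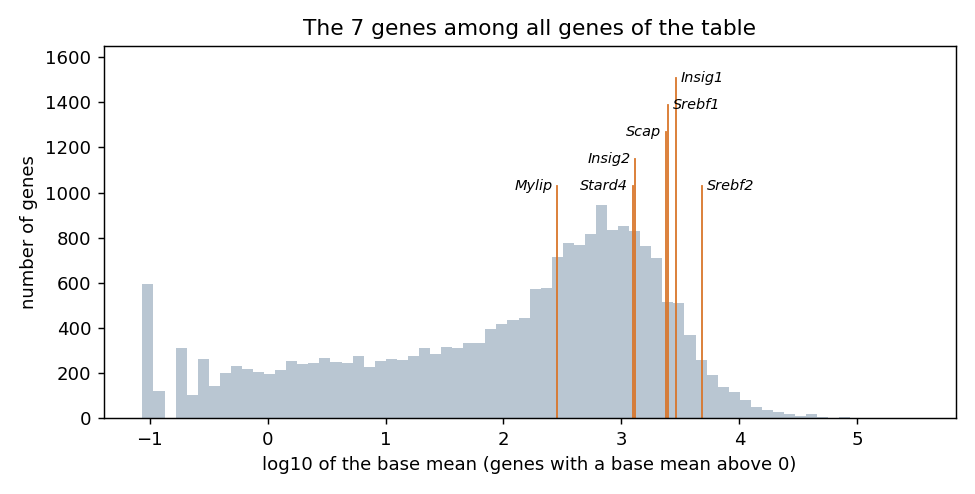
Histogram of the log10 base mean of the 20973 genes above 0, with a line for each of the 7 genes. *Mylip* is near the median of all genes (247), and the other members lie to its right, up to *Srebf2*.

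Of the 7 genes, 6 were above percentile 75 of all genes, both by base mean and per kilobase, and *Mylip* was the exception. With the percentiles taken over genes whose base mean was 10 or more, 4 of the 7 were above percentile 75 by base mean, with *Insig2* at 73.6, *Stard4* at 72.4 and *Mylip* at 37.0. The median of the 7 genes was 2384 for the base mean, where the median of all genes above 0 was 247, and 378 per kilobase, where that of all genes was 63.5. The lengths rest on 20358 genes (97.1% of those above 0) whose symbol matched a single gene of the annotation.

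A further 64 genes of the sterol pathway in 8 lists were set beside the members, and all 64 had a base mean above 0. Their median was 299 per kilobase. Ranked together by level per kilobase, *Insig1* was number 6 and *Srebf2* number 9 of the 71 genes, *Srebf1* number 17, *Insig2* number 27, *Scap* number 33, *Stard4* number 45 and *Mylip* number 60. The median of the 7 members (378) was above the median of each of the 8 lists. The margin was small for the COPII carriers (352) and the sterol carriers (346). Only merged exons were used as the length, so whether the order of the medians holds with other lengths was not tested. The comparison is a description of the lists, and the values of single genes overlapped with those of the members in all of them.

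The steps that follow SCAP had moderate levels. Among the site proteases that free SREBP in the Golgi, *Mbtps1* had 219 and *Mbtps2* 63.5 per kilobase, and both were below *Scap*. The 8 genes of the COPII carriers, which form the vesicles for the SCAP and SREBP complex, ranged from *Sec24d* (55.7 per kilobase) to *Sar1b* (702), with a median of 352. The 10 genes linked to the degradation of INSIG and of other proteins of the endoplasmic reticulum had a median of 270, with *Erlin1* lowest (66.7) and the segregase gene *Vcp* highest (1497).

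On the side of sterol excess, the LXR receptors that act on *Mylip* differed in level. *Nr1h2*, the gene of LXR beta, had 425 per kilobase and a base mean of 1426, while *Nr1h3*, the gene of LXR alpha, had 55.7 per kilobase and a base mean of 140. *Nr1h3* was thus lower than *Mylip*. The enzymes of oxysterols, the ligands of LXR and INSIG, ranged from *Ch25h* (17.9 per kilobase, base mean 24.8) to *Cyp27a1* (557 per kilobase).

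The lipoprotein receptors and their partners, some of which are the substrates of the *Mylip* product, had a median of 188 per kilobase, with *Scarb1* lowest (61.3) and *Lrp1* highest (1085). The sterol carriers, the list closest in function to *Stard4*, ranged from *Gramd1c* (13.1) to *Npc2* (553) with a median of 346, so that *Stard4* lay below the middle of them. In the 21 sterol synthesis enzymes, many of which are known targets of SREBP-2, the median was 321 per kilobase, between *Lbr* (104) and *Hmgcs1* (2010). *Insig1* was above the median of these enzymes and *Scap* was level with it (320).

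**Figure D4:**
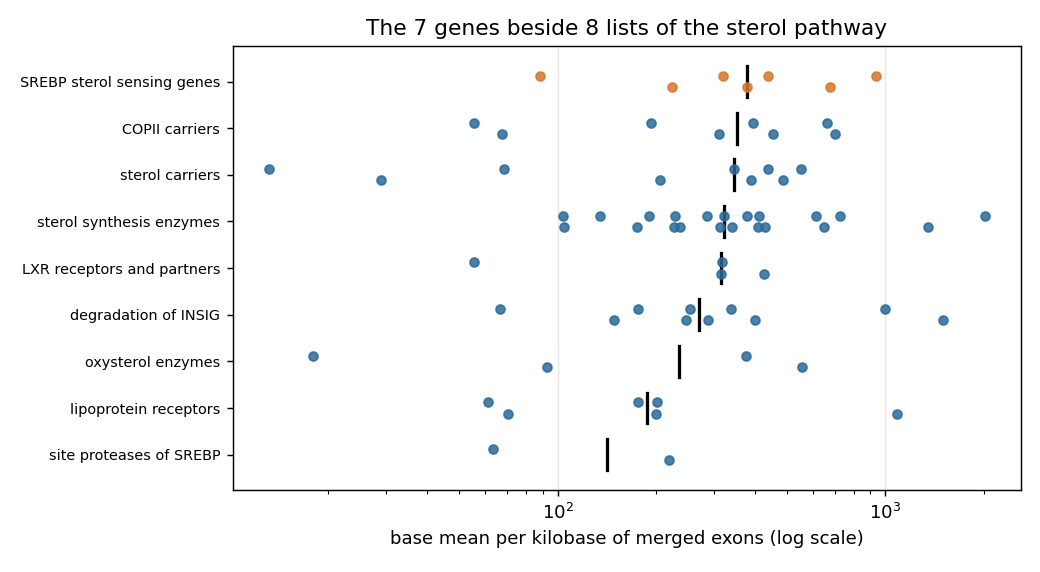
Base mean per kilobase of merged exons (log scale) for the 7 genes in orange and for the genes of 8 pathway lists in blue, with a black bar at each median. The median of the 7 genes is 378, and those of the lists run from 141 for the site proteases to 352 for the COPII carriers.

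The tissue label was checked against marker genes. Oligodendrocyte genes were the most abundant, from *Mog* (3138 per kilobase) to *Mbp* (37739), followed by neuronal genes from *Rbfox3* (601) to *Nefl* (14045) and astrocyte genes from *Aldh1l1* (431) to *Gfap* (13345). The microglial gene *Tmem119* was at 207, endothelial genes ranged from *Pecam1* (101) to *Cldn5* (501), and motor neuron genes from *Isl1* (11.5) to *Slc5a7* (410). Among markers of other tissues, skeletal muscle lay between *Myh4* (33.8) and *Acta1* (163), liver between *Cyp7a1* (0.156) and *Alb* (20.0), and the erythroid gene *Alas2* was at 57.1. These ranges overlapped with those of the motor neuron genes, and *Acta1* was above *Pecam1*. *Hba-a1* and *Hbb-bs* were listed at 0. Adult globin genes have near-identical copies, and reads without a unique position were not counted, so these zeros are no measure of blood in the samples. Which cells the members' transcripts came from was not tested.

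*Srebf2* is also the host of a microRNA, miR-33, a known repressor of cholesterol efflux genes. *Mir33* lies inside *Srebf2* on the same strand and shares 0 bases with its exons, and the mature forms in RefSeq are at chr15:82198127-82198147 and chr15:82198167-82198188 of GRCm38.p6. They are shown 5′ to 3′, with the seed (bases 2 to 8) in capitals, because the transcript of *Srebf2* carries their precursor.
miR-33-5p: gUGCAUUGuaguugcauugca
miR-33-3p: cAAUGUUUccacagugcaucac
The table lists *Mir33* at a base mean of 0.0932. Mature microRNAs are not captured by a library made from polyadenylated RNA, so this value is no measure of miR-33, and the base mean of *Srebf2* (4868) is that of the host gene.

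The promoters of the members were searched for the motifs of the pathway, as a description of the sequence, in RefSeq windows of 250 bases before to 50 bases after a start. Windows were found for 6 members, with 11 windows in all, and *Stard4* had none. An SRE, the element bound by SREBP, was spelled TCACNCCAC and searched on both strands. It had 0 exact matches in the 11 windows, and 1.24% of all 32851 promoter windows held one. With 1 mismatch allowed, *Srebf2*, *Mylip*, *Insig1* and *Insig2* had a match, in 4 of 11 windows, and 24.2% of all windows had one. The E-box CACGTG, a further site at which SREBP proteins can bind, was found in *Insig1* and *Scap*. It was present in 3 of 11 windows, 2 of which hold the same site of *Scap*, and in 7.15% of all windows. Sequences upstream of the start are shown for the E-box of *Insig1* and for the near matches of *Srebf2* and *Mylip*. All bases of the site are in capitals, including the mismatched base of a near match. That base is the final T in *Srebf2* and the G in *Mylip*, where the SRE has a C. The windows are on the plus strand of GRCm38.p6, at chr15:82147091-82147131 for *Srebf2*, chr13:45389598-45389638 for *Mylip* and chr5:28071295-28071332 for *Insig1*.
*Srebf2*, near match to the SRE: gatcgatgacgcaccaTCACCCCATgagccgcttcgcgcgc
*Mylip*, near match to the SRE: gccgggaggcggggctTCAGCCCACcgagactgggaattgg
*Insig1*, E-box: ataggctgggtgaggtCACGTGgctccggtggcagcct
Counted from the RefSeq start, with negative positions before it, the near match began at -162 in *Srebf2* and at -128 in *Mylip*, and the E-box began at -101 in *Insig1*. *Scap* has 2 RefSeq starts, and its single E-box lay at 28 from the first and at -40 from the second. The near matches of *Insig1* and *Insig2* began at -9 and at -11.

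The boxes of known partners of SREBP were counted in the same windows. CCAAT, the box of NF-Y, was present on either strand in 6 of the 11 windows and in 37.4% of all windows, and *Scap* was the member without one. GGGCGG, the GC box of the Sp1 family, was present in 9 of the 11 windows and in 35.7% of all windows, with at least 1 such window for each of the 6 members. The GC content of the 11 windows stood at percentiles 25.6 to 93.1 of all windows, with 7 of the 11 above percentile 75, and the part of this in the counts was not tested. Pairs of AGGTCA with 4 bases between them, the DR4 site of LXR, had 0 exact matches in the members and were found in 0.0152% of all windows. No match says only that these letters are not in the window, and a match does not show that the site is used.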

How the data were processed

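RNA of the spinal cord of 5 WT and 5 SOD1 G93A females was sequenced as stranded libraries of polyadenylated RNA with paired reads. Per the methods and the submitters' processing notes, the authors filtered reads with Fastp, aligned them to mm10 with HISAT2 2.1.0, assigned reads with a unique position to genes with featureCounts 2.0.2 and compared the genotypes with DESeq2. The gene annotation and the strand setting are not given in the sources used here. The deposited signal used here is the base mean, which the authors made by dividing counts by size factors and averaging over all 10 libraries, so no SD or depth per library can be given. Base means of the 25232 genes sum to 22158933. The other 5 columns of values hold the authors' own comparison (fold change, standard error, Wald statistic and p-values) and were not used, so no test between genotypes was made.

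Base means were divided by merged exon length from GENCODE M21. Percentiles are over genes with a base mean above 0. Proteins translated from GENCODE coding sequences were aligned globally (BLOSUM62). Promoter windows and microRNAs are from RefSeq, GRCm38.p6. Members and lists were chosen with earlier results of these data known, and motifs and ratios after promoters and levels had been seen. All members were named, and from each list the highest and lowest gene per kilobase, except 1 gene that is not reported here. *Rai1* and *Mir33* were singled out otherwise. Alternatives were other gene lengths, other sets of genes for percentiles, other list summaries and 1 motif mismatch. Merged lengths, the motif search and the order of levels per length were tested on simulated data. The simulated levels had known lengths, so which gene length applies was not tested. Python 3.11.15, numpy 2.4.6, pandas 2.3.3, biopython 1.88 and matplotlib 3.10.9 were used.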

Additional observations from a re-analysis of the deposited data

How the results depend on the processing

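No paired analysis was possible because the table pools all 10 libraries, and for the same reason no replicate could be left out and no other count normalization tried. The direction of each ratio held under every length, with 1 exception. *Insig1* over *Insig2* came to 1.00 with the mean transcript length, so no direction was left there. With the longest transcript, the mean transcript length, the coding length and no division by length, in that order, *Srebf2* over *Srebf1* was 1.66, 1.27, 1.97 and 1.96. *Insig1* over *Insig2* was 2.21, 1.00, 1.92 and 2.21. The *Insig* pair over *Scap* was 2.77, 1.45, 9.11 and 1.77, and *Stard4* over *Mylip* was 2.63, 5.73, 8.69 and 4.38. Of the 7 places in the order per kilobase, 5 stayed with the longest transcript, 4 with the mean transcript length, 2 with the coding length and 3 with no division. Allowing 1 mismatch raised the members with an SRE match from 0 to 4, in 4 of 11 windows. The share of all promoter windows with a match rose from 1.24% to 24.2%. The members stayed above all 8 lists when geometric means replaced the medians. The margin was then small for the sterol synthesis enzymes (338 per kilobase, against 352 for the members). A base mean of at least 10 removed no member and no gene of these lists, so that setting could not change the result. Other gene lengths were not tried for the lists. The ratios were chosen after the data were seen. Counting error and the spread between mice limit all levels and are not given here.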
